A study of Mus musculus with 6 samples.

Results

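The genes described here are 6 enzymes and carriers of steroid and sterol ester metabolism, Cyp17a1, Hsd11b1, Akr1b7, Soat1, Soat2 and Osbpl5, out of 57180 genes in the deposited table of sorted liver NK cells. They were picked by name, with their levels in these same libraries already known, so their differences between the groups are given below as a description and carry no p-value. All 6 passed the filter on low counts that left 14761 genes for testing. Cyp17a1 passed it through the CD36- NK libraries and Akr1b7 through the CD36+ NK libraries.

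The study sorted NK cells, taken as CD3- NK1.1+ cells, from fibrotic mouse liver into cells with and without surface CD36, a receptor that takes up fatty acids and oxidised lipoproteins, and sequenced their mRNA. The mice were male C57BL/6J animals 6 to 8 weeks old, and all had received the liver toxin CCl4 over 4 weeks, with 2 doses a week (a 20% solution in olive oil at 2.5 ml/kg). Tissue was taken 48 h after dosing ended. Both groups, CD36+ NK and CD36- NK, therefore came from CCl4-treated liver, and each holds 3 libraries. No label says whether the 3 libraries of a group came from separate mice or pools, so a p-value here measures the spread between these libraries, which may be technical.

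Cholesterol inside a cell can be stored, moved or converted. Sterol O-acyltransferases join it to a fatty acid so that it can be kept in lipid droplets, lipid transfer proteins carry lipids between membranes that touch, and in steroid-making tissue mitochondrial and microsomal enzymes turn it into hormones. Many other cells make no steroid from cholesterol but still reactivate or inactivate hormones that reach them from the blood, and lymphocytes are well known as targets of glucocorticoids.

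The libraries held between 10292480 and 13787189 counts. Levels are given as CPM (counts scaled to library size by the trimmed mean of M values) unless another unit is named. A count of 0 in one library allows up to 3 counts, or 0.218 to 0.291 CPM before that scaling, and this limit and the intervals below cover counting error only. The names of the libraries write the sign of CD36 differently from the sample titles, and groups follow the titles here. Cd36 was at 110, 263 and 238 CPM where the title says CD36+ and at 14.3, 31.7 and 17.1 CPM where it says CD36-, so its transcript went with the titles. Klrb1c, which encodes NK1.1, the antigen of the sort, was at 83.1, 106 and 77.9 CPM in CD36+ NK and 495, 448 and 524 CPM in CD36- NK. The other NK genes moved with it. All 12 genes of an NK lineage list were called lower in CD36+ NK, against 2.98% of all tested genes, and their summed level was 1182 to 1454 CPM against 6181 to 8070 CPM. The summed level was higher in CD36+ NK for macrophage markers (6736 to 9368 against 2472 to 5812 CPM), B cell markers (4231 to 4725 against 2717 to 3119 CPM, 1 of 6 called higher) and erythroid markers (329 to 755 against 71.2 to 154 CPM, 5 of 6 called higher). T cell markers summed to 255 CPM in CD36+ NK replicate 1 and to 22.4 to 44.5 CPM in the other 5 libraries, with Cd3e at 27.0 CPM in that library and at most 1.06 CPM elsewhere. Of the 6 T cell genes 2 were called higher in CD36+ NK, Cd4 at 51.4, 11.3 and 23.9 against 4.69, 7.78 and 4.59 CPM and Cd8a at 63.2, 8.98 and 16.5 against 2.92, 4.24 and 2.64 CPM. In bulk libraries such as these, fewer cells of a type and less RNA per cell cannot be told apart. The part of these marker differences in the levels of the 6 genes was not tested.

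A gene was called where edgeR's quasi-likelihood test gave a Benjamini-Hochberg adjusted p below 0.05 and the fold change exceeded 2, and 5.96% of the tested genes were called. Of the 6 genes, 5 met the call, Akr1b7 as higher in CD36+ NK and Cyp17a1, Hsd11b1, Soat2 and Osbpl5 as lower, while Soat1 did not. The same 5 genes had no overlap between the groups, as had 32.8% of all tested genes. Since the genes were chosen for this contrast, nothing is read from these counts. In the order of absolute log2 fold change among the 14761 genes, Akr1b7 ranked 36, Cyp17a1 182, Soat2 619, Osbpl5 1071, Hsd11b1 1148 and Soat1 4047. Without CD36+ NK replicate 1, the library with the T cell genes, the log2 fold changes were -2.73 for Cyp17a1, -1.37 for Hsd11b1, 3.56 for Akr1b7, 0.56 for Soat1, -1.89 for Soat2 and -1.39 for Osbpl5. The same 5 genes were called, and nothing is read from that either, since they were chosen for this contrast.

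**Figure D1:**
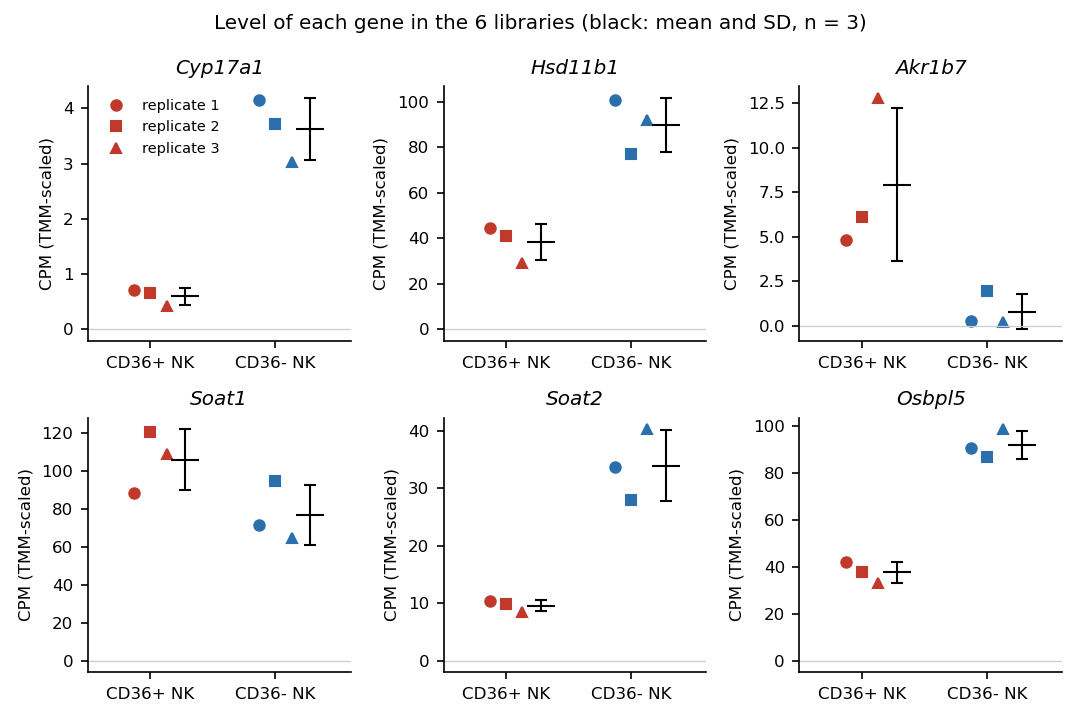
Level of each of the 6 genes in CPM (vertical axis, starting below 0 only for display) in the 3 CD36+ NK (red) and 3 CD36- NK (blue) libraries, with symbols for the replicate number and black bars for mean and SD, n = 3. For Cyp17a1, Hsd11b1, Soat2 and Osbpl5 every CD36+ NK point lies below every CD36- NK point, for Akr1b7 every CD36+ NK point lies above, and for Soat1 the groups overlap.

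The promoter sequences of Akr1b7, Hsd11b1 and Osbpl5 are shown because these genes differed between the groups and because the text below says which letters for NK, steroidogenic and myeloid factors they hold. RefSeq's table on GRCm38.p6 gave windows for 4 of the 6 genes, 6 windows in all, and Cyp17a1 and Soat2 had no entry. Each run is the 250 bases upstream of an annotated start, written 5′ to 3′ on the gene's strand, at chr6:34412112-34412361 (plus strand), chr1:193242361-193242610 (minus strand) and, for the second of 3 Osbpl5 windows, chr7:143741964-143742213 (minus strand). Capitals mark motif matches.
Akr1b7: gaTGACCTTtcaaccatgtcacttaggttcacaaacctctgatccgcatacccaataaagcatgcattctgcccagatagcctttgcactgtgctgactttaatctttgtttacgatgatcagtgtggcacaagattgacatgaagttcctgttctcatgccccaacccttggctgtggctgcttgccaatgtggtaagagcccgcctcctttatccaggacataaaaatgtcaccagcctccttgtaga
Hsd11b1: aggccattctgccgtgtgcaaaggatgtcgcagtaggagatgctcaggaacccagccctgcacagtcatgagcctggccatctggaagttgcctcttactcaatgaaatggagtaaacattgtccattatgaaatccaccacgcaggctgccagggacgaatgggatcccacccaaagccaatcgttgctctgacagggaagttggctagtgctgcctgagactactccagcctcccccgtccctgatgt
Osbpl5: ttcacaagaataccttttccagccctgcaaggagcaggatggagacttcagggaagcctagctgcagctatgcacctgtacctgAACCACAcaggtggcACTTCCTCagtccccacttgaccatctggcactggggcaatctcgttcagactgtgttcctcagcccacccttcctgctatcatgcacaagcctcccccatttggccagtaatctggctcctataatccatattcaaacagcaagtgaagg

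The search covered both strands for 4 fixed strings, AAGGTCA (a core of the sites of NR5A factors such as the steroidogenic factor SF-1), GGTGTGA (a T-box core, the class of T-bet and Eomes), TGTGGTT (a RUNX site) and GAGGAAGT (a PU.1 core). Akr1b7 held 1 match, AAGGTCA on the minus strand 248 bases before the start, a string present in 4.08% of all 32817 windows of this length. Nr5a1, which encodes SF-1, had 3 counts in all 6 libraries together, and Nr5a2 had 0. The second Osbpl5 window held TGTGGTT at -166 and GAGGAAGT at -151, both on the strand opposite to the gene's, so the printed run shows their reverse complements. These strings occur in 4.39% and 2.44% of windows. No match to any of the 4 strings was found in the window of Hsd11b1, in that of Soat1 or in the other two of Osbpl5, and GGTGTGA, found in 3.33% of windows, was in none of the 6. A match describes letters and does not show a bound site.

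Cyp17a1 (ENSMUSG00000003555) encodes the microsomal cytochrome P450 that turns pregnenolone and progesterone into precursors of other steroid hormones, and it is best known from the gonads. The table places it on chromosome 19 from 46655604 to 46661611 on the minus strand, in a genome build that the table does not name. It was the least abundant of the 6 genes per length, with a mean over all libraries of 0.514 FPKM (the deposited measure of fragments per transcript length and depth). Its counts were 8, 9 and 5 in CD36+ NK and 54, 42 and 31 in CD36- NK, and in CPM these were 0.712, 0.662 and 0.416 against 4.15, 3.71 and 3.03. The lowest CD36- NK library thus lay above every CD36+ NK library, and their exact 95% Poisson intervals, 21.1 to 44.0 counts for the former and 4.12 to 17.1 counts for the highest of the latter, did not overlap. The mean was 0.597 ± 0.159 CPM against 3.63 ± 0.566 CPM (SD, n = 3 each), a log2 fold change of -2.59 (SE 0.310). Pooled over libraries, the 127 counts of CD36- NK against 22 of CD36+ NK gave a ratio of 6.34 with a 95% counting interval of 4.01 to 10.5. Neither this interval nor the Poisson intervals cover the spread between libraries, and none is a test, since Cyp17a1 was chosen for this contrast.

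Of the genes next to Cyp17a1 in the pathway, the first steps were detected and several later ones were not. Star, which feeds cholesterol to the mitochondrion, stood at 3.29, 4.27 and 3.66 CPM in CD36+ NK and 3.77, 4.33 and 4.20 CPM in CD36- NK. Cyp11a1, which cuts the side chain of cholesterol and so starts steroid synthesis, stood at 8.72, 4.05 and 3.58 CPM against 7.92, 11.6 and 6.15 CPM. Both overlapped between the groups, and for Cyp11a1 the log2 fold change was -0.66 (SE 0.396, edgeR adjusted p = 0.353). Hsd3b1, Hsd3b2 and Hsd3b6, which convert pregnenolone to progesterone, had no count in any library. Cyp21a1, Cyp11b1, Cyp11b2 and Cyp19a1, the later enzymes towards glucocorticoids, mineralocorticoids and estrogens, had none either.

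Hsd11b1 (ENSMUSG00000016194) encodes the reductase of the endoplasmic reticulum that regenerates active glucocorticoid from its inactive keto form. It lies on chromosome 1 from 192903942 to 192946383 on the minus strand in the table, and its promoter window was printed above. Its level was 44.7, 41.1 and 29.3 CPM in CD36+ NK, from 502, 558 and 353 counts, and 101, 77.2 and 92.2 CPM in CD36- NK, from 1309, 873 and 944 counts. CD36+ NK replicate 3 was the lowest of all 6 libraries, and the groups did not overlap. The means were 38.4 ± 8.01 CPM and 90.0 ± 11.9 CPM, and the log2 fold change was -1.23 (SE 0.177), or 2.35 times as high in CD36- NK.

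Per length, Hsd11b1 was at 6.01 ± 1.40 FPKM in CD36+ NK and 14.4 ± 1.76 FPKM in CD36- NK. Its opposing enzyme Hsd11b2, which inactivates glucocorticoid, had 10 counts over all libraries, so that Hsd11b1 made up 98.0 to 99.0% of their summed FPKM in CD36+ NK, while in CD36- NK it made up 99.3 to 100%. H6pd, which supplies NADPH to Hsd11b1 in the endoplasmic reticulum, stood at 39.5, 42.2 and 40.5 CPM in CD36+ NK and 51.2, 58.7 and 54.9 CPM in CD36- NK. The groups did not overlap for H6pd either, but its log2 fold change of -0.43 (SE 0.0932, edgeR adjusted p = 0.0317) was under the fold required for a call. The annotated span of Hsd11b1 overlaps Lamb3 and 4930570N18Rik on the opposite strand, with 891 and 157 counts in total, and Gm38118 on its own strand, with 78. Whether the counting used strand is not given in the sources used here, so some fragments may have been shared.

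The list of steroid receptors and glucocorticoid targets was read beside Hsd11b1, and 7 of its 14 tested genes had a log2 fold change above 0 (median -0.01). Nr3c1, the glucocorticoid receptor, was at 162 ± 51.5 CPM in CD36+ NK and 185 ± 35.2 CPM in CD36- NK (log2 fold change -0.20, SE 0.251, edgeR adjusted p = 0.686). Tsc22d3, the glucocorticoid-induced leucine zipper, was at 305 ± 37.4 against 319 ± 35.6 CPM, with a log2 fold change of -0.07. Fkbp5, a co-chaperone of the receptor that glucocorticoids induce, was at 54.5, 39.8 and 40.7 CPM against 61.9, 67.5 and 75.5 CPM, lower in every CD36+ NK library but by less than the required fold (log2 fold change -0.60, SE 0.149, edgeR adjusted p = 0.0462). Other targets lay on the other side of 0 without being called, among them Zbtb16, a zinc finger factor, at 16.4 against 10.4 CPM (log2 fold change 0.66, SE 0.241) and Mt1, a metallothionein, at 13.4 against 5.50 CPM (log2 fold change 1.27, SE 0.417).

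Akr1b7 (ENSMUSG00000052131) encodes an aldo-keto reductase known from the vas deferens and the adrenal cortex, where it reduces aldehydes, among them the one released when the side chain of cholesterol is cut. It lies on chromosome 6 from 34389269 to 34400077 on the plus strand in the table. Its counts were 54, 83 and 154 in CD36+ NK and 3, 22 and 2 in CD36- NK, or 4.81, 6.11 and 12.8 CPM against 0.231, 1.95 and 0.195 CPM. The groups did not overlap, but within each group 1 library stood well above the other two, replicate 3 in CD36+ NK and replicate 2 in CD36- NK. The 95% Poisson interval of the latter, 13.8 to 33.3 counts, lay below that of the lowest CD36+ NK library, 40.6 to 70.5 counts.

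The means of Akr1b7 were 7.91 ± 4.29 CPM and 0.790 ± 1.00 CPM, coefficients of variation of 54.3% and 127% that were the widest of the 6 genes. The log2 fold change was 3.31 (SE 0.794). Leaving out CD36- NK replicate 2 moved it to 5.13 (SE 0.661), and leaving out CD36+ NK replicate 3 to 2.78. The gene no longer met the call without CD36+ NK replicate 2 or 3 or CD36- NK replicate 1 or 3, with the replicate number as a block or with no filter on low counts. The pooled counts, 291 against 27, gave a ratio of 9.82 with a 95% counting interval of 6.61 to 15.2. That interval leaves out the wide spread between libraries and is no test, since Akr1b7 was chosen for this contrast. Akr1b7 has close relatives in the Akr1b family whose reads could be split among them, so these values are uncertain to that extent. Its relatives Akr1b3 and Akr1b10 showed log2 fold changes of 0.05 (SE 0.101) and 0.27 (SE 0.162), and Akr1b8 had 5 counts in all. As a share of the summed FPKM of the aldo-keto reductases, Akr1b7 made up 3.34, 4.10 and 6.70% in CD36+ NK and 0.182, 1.43 and 0.177% in CD36- NK.

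The order of the libraries for Akr1b7 was set beside the macrophage list after its values were seen. Of the 10 macrophage genes tested, 4 were called higher in CD36+ NK and none lower, and the median of their log2 fold changes was 2.88. In 9 of them the CD36+ NK libraries had the same order as for Akr1b7, replicate 3 highest and replicate 1 lowest. In 9 of them CD36- NK replicate 2 was the highest of its group. Within CD36- NK, Akr1b7 was lowest in replicate 3, but C1qa, C1qb, C1qc and Marco were lowest in replicate 1. The share of all tested genes with such orders was not counted. Marco, a scavenger receptor of resident macrophages, was at 14.4, 31.6 and 47.5 CPM against 0.999, 5.92 and 1.37 CPM. Adgre1, which encodes F4/80, was at 225, 348 and 581 CPM against 58.6, 135 and 35.6 CPM. Lyz2 alone was outside both counts of 9, at 4305, 4096 and 3486 CPM against 4747, 4330 and 2052 CPM. The 2 untested genes of the list, both markers of Kupffer cells, had another order than Akr1b7 in CD36+ NK, with replicate 2 highest and replicate 3 lowest. Clec4f had 17, 624 and 0 counts there and 0 in every CD36- NK library, and Vsig4 had 10, 181 and 6 counts against 0, 3 and 0. The part of macrophage RNA in the level of Akr1b7 was not tested.

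**Figure D2:**
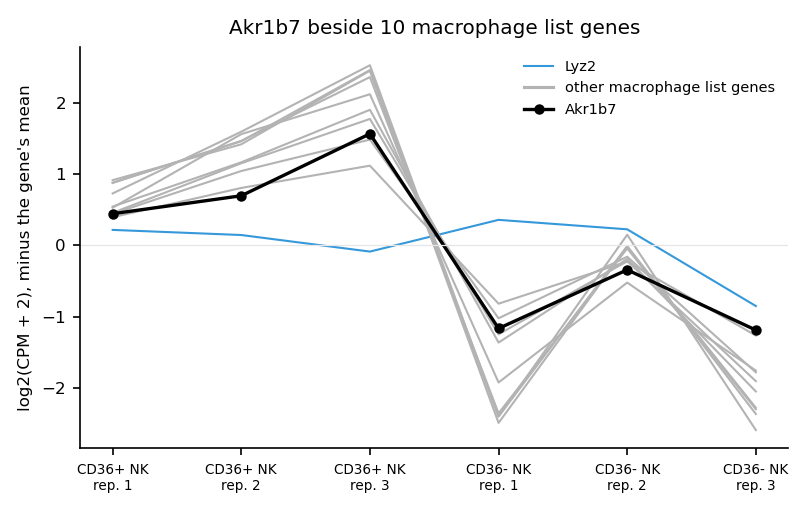
Level of Akr1b7 (black) and of the 10 tested macrophage list genes (grey, Lyz2 in blue) in each library, as log2(CPM + 2) after subtracting the gene's mean over the 6 libraries. Lines only join the values of 1 gene, since the libraries have no order, and 9 of the 10 genes share with Akr1b7 a highest value in CD36+ NK replicate 3 and, within CD36- NK, in replicate 2.

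Soat1 and Soat2 encode the sterol O-acyltransferases, membrane enzymes that esterify cholesterol. Soat1 is the widely expressed form and is known for loading macrophages with sterol esters, and Soat2 is known mainly from hepatocytes and enterocytes. Soat2 (ENSMUSG00000023045, chromosome 15 from 102058961 to 102071904, plus strand) was at 10.4, 9.86 and 8.56 CPM in CD36+ NK, from 117, 134 and 103 counts. In CD36- NK it was at 33.7, 27.9 and 40.3 CPM, from 438, 316 and 413 counts. The lowest CD36- NK library was far above the highest CD36+ NK library. The means were 9.61 ± 0.950 and 34.0 ± 6.20 CPM, with a log2 fold change of -1.82 (SE 0.171), or 3.53 times as high in CD36- NK.

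Soat1 (ENSMUSG00000026600, chromosome 1 from 156252095 to 156301901, minus strand) was at 88.5, 120 and 109 CPM in CD36+ NK and 71.4, 94.8 and 64.5 CPM in CD36- NK. Here the groups overlapped, since CD36- NK replicate 2 lay above CD36+ NK replicate 1. The means were 106 ± 16.1 and 76.9 ± 15.9 CPM, a log2 fold change of 0.46 (SE 0.175) that did not meet the call. Without CD36- NK replicate 2 the log2 fold change was 0.64, and without CD36- NK replicate 3 it was 0.34.

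Per length, the balance of both enzymes differed between the groups. Soat2 made up 36.9, 28.9 and 28.1% of the summed FPKM of Soat1 and Soat2 in CD36+ NK and 70.1, 59.4 and 75.7% in CD36- NK, so that Soat1 was the more abundant of the pair in each CD36+ NK library and Soat2 in each CD36- NK library. The shares averaged 31.3 ± 4.87% and 68.4 ± 8.25%. Their summed level was 10.8, 12.7 and 11.0 FPKM in CD36+ NK and 18.4, 18.3 and 20.1 FPKM in CD36- NK. The split follows from the levels that chose these genes and is given as a description.

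**Figure D3:**
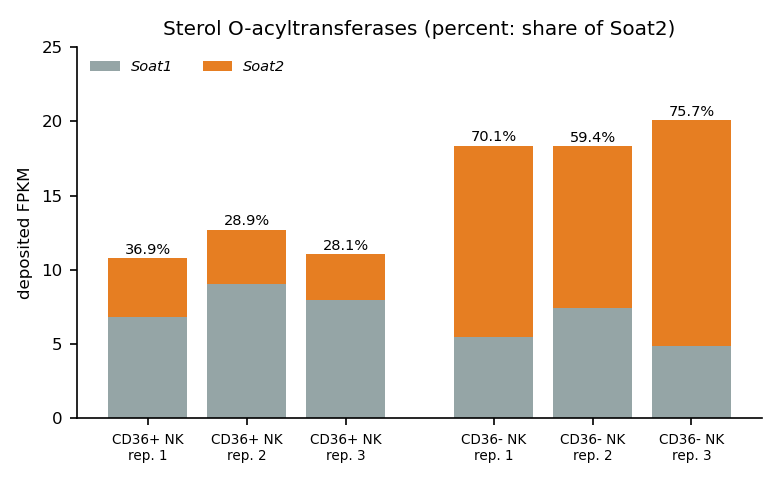
Deposited FPKM of Soat1 (grey) and Soat2 (orange) stacked for each library, on a vertical axis that starts at 0, with the share of Soat2 in their sum printed above each bar. Soat2 takes between 28.1 and 36.9% of the sum in CD36+ NK and between 59.4 and 75.7% in CD36- NK.

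Since Soat2 is also an enzyme of hepatocytes, the hepatocyte markers were read beside it. Their summed level lay between 1.83 and 10.7 CPM in CD36+ NK and between 0.0884 and 1.08 CPM in CD36- NK. Alb, which encodes albumin, had 30, 106 and 9 counts in CD36+ NK and 9, 0 and 0 in CD36- NK. The part of hepatocyte RNA in the level of Soat2 was not tested.

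Among genes that break down or shelter sterol esters, Lipa and Plin2 rose in CD36+ NK. Lipa, the lysosomal acid lipase that frees cholesterol from its esters, was at 137, 170 and 238 CPM in CD36+ NK and 70.3, 94.3 and 53.9 CPM in CD36- NK (log2 fold change 1.32, SE 0.261, edgeR adjusted p = 0.0240). Plin2, a coat protein of lipid droplets, was at 92.7, 129 and 133 CPM against 47.8, 60.1 and 37.6 CPM, with a log2 fold change of 1.29 (SE 0.206, edgeR adjusted p = 0.0117). For both genes the groups did not overlap. Lipa lost its call with the replicate block and without CD36+ NK replicate 2 or 3 or CD36- NK replicate 1 or 3, and Plin2 when either CD36+ NK replicate 2 or CD36- NK replicate 1 was left out. These were the 2 called genes among the 8 tested others of the sterol ester list, where 5.96% of all tested genes were called. With so few genes, nothing is read from that count. Lipe, the hormone-sensitive lipase, had a log2 fold change of 0.61 (SE 0.123, edgeR adjusted p = 0.0245), under the required fold. Nceh1, a further sterol ester hydrolase, was at 30.0 CPM against 26.4 CPM on average (log2 fold change 0.19, SE 0.169). In CD36+ NK, Lipa and Plin2 both had the order of 9 of the 10 tested macrophage genes, replicate 3 highest and replicate 1 lowest. Within CD36- NK, Lipa and Plin2 were highest in replicate 2. The part of macrophage RNA in their levels was not tested.

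Osbpl5 (ENSMUSG00000037606) encodes ORP5, a membrane-anchored member of the oxysterol-binding protein family that exchanges lipids where the endoplasmic reticulum touches the plasma membrane. It lies on chromosome 7 from 143242499 to 143310722 on the minus strand in the table. Its level was 42.0, 37.7 and 33.0 CPM in CD36+ NK, from 472, 513 and 397 counts, and 90.3, 86.7 and 98.5 CPM in CD36- NK, from 1175, 981 and 1009 counts. The groups were well apart and each was tight, with coefficients of variation of 12.0% and 6.59%. The means were 37.6 ± 4.50 and 91.9 ± 6.05 CPM, with a log2 fold change of -1.29 (SE 0.115), or 2.44 times as high in CD36- NK. This was the smallest standard error of the 6 genes.

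Within its family, Osbpl5 made up 9.47, 7.81 and 6.92% of the summed FPKM in CD36+ NK and 15.6, 14.7 and 15.8% in CD36- NK. Its relative Osbpl3, which encodes ORP3, was at 42.4, 48.9 and 38.9 CPM in CD36+ NK and 187, 184 and 235 CPM in CD36- NK. Osbpl3 fell by 2.22 on the log2 scale (SE 0.140, edgeR adjusted p = 0.000428), and it was the only other called gene among the 8 tested relatives. The most abundant relatives per length, Osbp and Osbpl9, had mean levels over all libraries of 21.3 and 12.7 FPKM and log2 fold changes of -0.14 (SE 0.0866) and 0.24 (SE 0.113), neither called. Osbpl1a had a log2 fold change of 0.93 (SE 0.223, edgeR adjusted p = 0.0418), just under the required fold. Osbpl6 and Osbpl10 had 3 counts and 1 count in total, and Osbp2 had none.

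**Figure D4:**
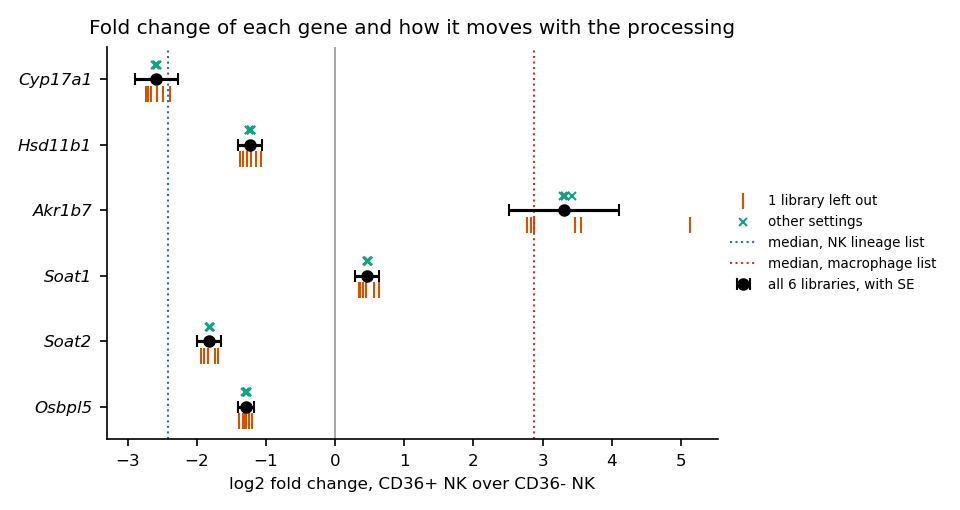
Log2 fold change of CD36+ NK over CD36- NK for the 6 genes (black point and bar: value and SE from all 6 libraries), with values after leaving out 1 library (orange ticks) and under the other settings (green crosses), and dotted lines for the medians of the NK lineage list (-2.42) and the macrophage list (2.88). Akr1b7 moves most, from 2.78 to 5.13, whereas Osbpl5 stays between -1.39 and -1.20.

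Among themselves, the 4 genes lower in CD36+ NK had the most similar patterns. Likeness was measured as the root mean square difference in log2(CPM + 2) over the 6 libraries, each gene centred on its own mean, a scale that understates the difference of a low gene such as Cyp17a1. The closest pair was Hsd11b1 and Osbpl5 at 0.132, and the 6 pairs of these 4 genes lay between 0.132 and 0.329. Soat1 and Soat2 were 1.10 apart, and the farthest pair was Akr1b7 and Soat2 at 1.81. The measure holds the group difference, so genes chosen for a shift the same way lie close, and these distances are a description.

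By the same measure, the nearest of 11404 other genes with a mean of at least 5 CPM were named for each gene. Nearest to Cyp17a1 were Bspry (0.0981), Nlrc3 (0.108) and Gimap1os (0.125), and nearest to Soat2 were Gm12596 (0.0671), Gm2792 (0.0955) and Padi2 (0.0984). Hsd11b1 lay nearest to Acot7 (0.118), Gimap9 (0.118) and Gimap4 (0.125), and Osbpl5 to Plekha5 (0.0870), Gimap4 (0.0938) and Bsn (0.0948), so that Gimap4 was near both. Soat1 had the closest match of all, Slc27a1 at 0.0249, followed by Wdr41 (0.0398) and Ccdc28b (0.0538). For Akr1b7 the nearest were Nuak1 (0.0793), Prnp (0.0836) and Nid2 (0.0856). Slc27a1, which encodes a fatty acid transport protein, was at 14.7 ± 2.04 CPM in CD36+ NK and 10.3 ± 2.47 CPM in CD36- NK. Padi2, a peptidylarginine deiminase, was at 88.0 ± 7.47 and 260 ± 17.5 CPM.

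The rest of the pathway was read from 7 lists of steroid, sterol ester, sterol transport, aldo-keto reductase, receptor and oxysterol genes. Of 108 other genes found in the table, 72 were tested and 4 were called, 2 higher and 2 lower, which is 5.56% against 5.96% of all tested genes. The median log2 fold change of the 72 was 0.06, beside 0.01 over all tested genes. Lipa, Plin2 and Osbpl3, described above, were among the 4. With no fold threshold, 14 of the 72 genes had an edgeR adjusted p below 0.05, or 19.4% against 10.5% of all tested genes. The 10 of them under the required fold were split into 6 higher and 4 lower.

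With 5.96% of all tested genes called, nothing is read from the number of calls in any single list, since each is short. In the steroid hormone list, 19 others were tested and none was called, with a median log2 fold change of 0.20. Its most abundant genes per length were Tspo, a protein of the outer mitochondrial membrane, at a mean of 88.1 FPKM, and Hsd17b11, a dehydrogenase found on lipid droplets, at 20.7 FPKM. Tspo was at 93.0, 66.6 and 73.1 CPM in CD36+ NK and 152, 119 and 116 CPM in CD36- NK (log2 fold change -0.74, SE 0.162, edgeR adjusted p = 0.0330). Hsd17b11 stood at 82.2, 108 and 105 CPM against 62.4, 59.3 and 47.7 CPM, a log2 fold change of 0.80 (SE 0.148, edgeR adjusted p = 0.0194). Hsd17b12, which also serves fatty acid elongation, had a log2 fold change of 0.96 (SE 0.219, edgeR adjusted p = 0.0373). In each of these 3 genes the groups did not overlap, but the fold stayed under 2.

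Among 11 other sterol carriers none was called (median log2 fold change -0.10). The most abundant per length were Npc2, which carries cholesterol out of the lysosome, at a mean of 50.8 FPKM, and Gramd1a, which takes cholesterol from the plasma membrane to the endoplasmic reticulum, at 31.3 FPKM. Their log2 fold changes were 0.02 (SE 0.139) and -0.11 (SE 0.153), and both changed sign when single libraries were left out. Among the 7 other aldo-keto reductases none was called (median 0.10), with Akr1a1 and Akr7a5 the most abundant at 80.5 and 9.41 FPKM. Of the 14 receptor and glucocorticoid target genes 1 was called, and Dusp1, a phosphatase that many stimuli induce, and Tsc22d3 were the most abundant at 155 and 38.7 FPKM. Dusp1 was at 843, 1297 and 1310 CPM in CD36+ NK and 838, 617 and 822 CPM in CD36- NK, with a log2 fold change of 0.60 (SE 0.202, edgeR adjusted p = 0.109). None of the 5 oxysterol enzymes tested was called (median 0.34), with Cyp27a1 and Cyp51 the most abundant at 20.1 and 7.16 FPKM.

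**Figure D5:**
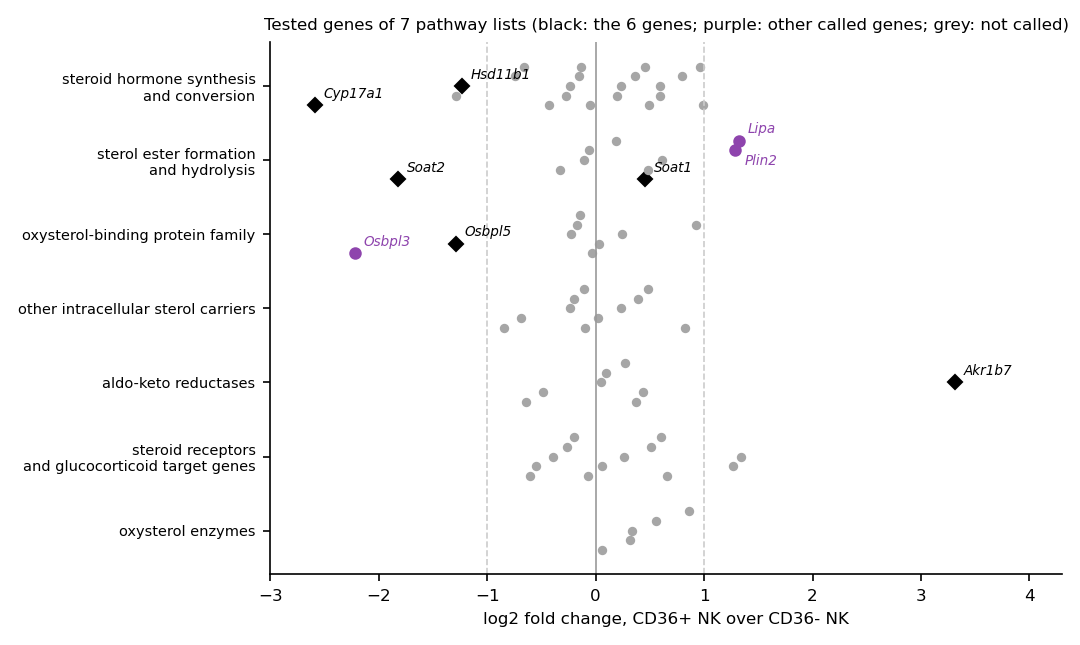
Log2 fold change of CD36+ NK over CD36- NK (horizontal axis) for tested genes of the 7 lists, 1 row per list with points offset vertically for display, where dashed lines mark a fold change of 2. The 6 genes are black, Lipa, Plin2 and Osbpl3 purple and uncalled genes grey, and most grey points lie between the dashed lines.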

How the data were processed

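Reads had been cleaned by the authors (Seqtk), aligned (HISAT2 version 2.0.4) and summarised by gene (StringTie). The deposited table gives a count and an FPKM value for every gene in each library. The build behind its coordinates is not given in the sources used here, and the submitters' processing notes name a rat assembly beside mouse Ensembl identifiers. Table columns were matched to samples by library name and groups were taken from titles. 2 genes whose lines were broken in the table were rejoined, and no column of per-sample values was left unmapped (0).

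From the deposited counts, genes were filtered with filterByExpr (minimum count 10), scaled by the trimmed mean of M values and tested with edgeR 4.0.16 (limma 3.58.1, R 4.3.3) quasi-likelihood tests over all 14761 genes, with Benjamini-Hochberg adjustment, in 3 libraries against 3. The biological coefficient of variation was 20.3%. SE is the absolute log2 fold change over the square root of F. The deposited FPKM values were used only to compare genes per length. On simulated counts for this comparison the step recovered 200 of 200 changed genes and called 3 unchanged genes among 14555. The changed genes were drawn from those with higher mean levels, all had the same large fold change, and every gene had a common dispersion. The result does not cover genes as low as Cyp17a1 and Akr1b7 or fold changes as small as those of Hsd11b1, Osbpl5 and Soat1. Chi-square values per degree of freedom between replicates were 15 to 29.6, so no library was a duplicate. Same-numbered libraries were not treated as pairs, since nothing in the labels or methods pairs them. The correlations of their deviations were 0.367, 0.0871 and -0.086, which cannot show whether pairs exist. The replicate numbers are those of the titles, and the library names number the CD36- NK libraries differently. The correlations and the replicate block thus rest on the titles' numbering alone.

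The 6 genes, the lists and the tests were chosen with earlier results of these data known. Beside the 6 genes, the text names the sort markers, every called gene and the 2 most abundant genes of each pathway list, and the 3 genes nearest in pattern to each of the 6. Others are named for their place in the pathway or beside a result, with their values known. Hsd17b8 and Akr1b1 were not matched in the table. The values of 1 called gene of the lists are not reported here. DESeq2 1.42.0, upper-quartile scaling, other filters, a replicate block and leaving out each library were the alternatives. Scripts ran under Python 3.11.15.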

Additional observations from a re-analysis of the deposited data

How the results depend on the processing

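The log2 fold changes of Cyp17a1 (-2.73 to -2.39), Hsd11b1 (-1.37 to -1.07), Soat1 (0.34 to 0.64), Soat2 (-1.94 to -1.69) and Osbpl5 (-1.39 to -1.20) moved by less than the spread between replicates when single libraries were left out. Akr1b7 (2.78 to 5.13) moved by more without CD36- NK replicate 2. Akr1b7 lost its call with the replicate block and with no filter on low counts. It also lost it without CD36+ NK replicate 2 or 3 or CD36- NK replicate 1 or 3. Cyp17a1, Hsd11b1, Soat2 and Osbpl5 kept their calls in every setting that tested them. These genes were chosen for this contrast with their levels in these same libraries known. Their kept calls are thus a description, and nothing is read from them. With at least 10 counts in every library Cyp17a1 and Akr1b7 gave no value. Over all genes, 880 were called (440 in each direction), 560 with the replicate block (221 higher, 339 lower), 1552 with no fold threshold, 1143 with DESeq2 and 417 to 1160 with 1 library left out, where the split ran from 94 higher and 323 lower (without CD36- NK replicate 1) to 708 higher and 452 lower (without CD36- NK replicate 2). Of the other pathway genes 4 were called, 2 with the replicate block (Plin2 and Osbpl3), 14 with no fold threshold and 1 to 8 with 1 library left out (8 without CD36- NK replicate 2), and Osbpl3 kept its call throughout. With 1 library left out the sign turned for Gramd1a (-0.23 to 0.02, above 0 without CD36- NK replicate 3), Npc2 (-0.11 to 0.11, with -0.06 without CD36+ NK replicate 3 and -0.11 without CD36- NK replicate 3) and Tsc22d3 (-0.17 to 0.01, with 0.00 and 0.01 without the same 2 libraries). The causes were not tested. Depth limits Cyp17a1 and Akr1b7, whose lowest libraries had 5 and 2 counts.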

Other observations

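Other cell type lists are given here as values. The dendritic cell list was mixed. Xcr1 and Clec9a, markers of cross-presenting dendritic cells, were called higher in CD36+ NK (log2 fold changes 2.46 and 2.03) and Itgax, which encodes CD11c, was called lower (-1.13), with a median of 0.41 over the 6 genes. Itgax, at a mean of 234 CPM in CD36+ NK and 513 CPM in CD36- NK, made up most of the summed level of that list, 287 to 352 against 466 to 651 CPM. The monocyte list was mixed as well, with Cd14 called higher (1.70), Ccr2 called lower (-1.35) and summed levels of 908 to 987 against 763 to 1219 CPM. The mast cell and basophil markers summed to 42.3 to 61.9 CPM against 99.4 to 123 CPM, with 1 of 6 called lower and none above 0 in log2 fold change. The platelet markers summed to 14.5 to 26.7 against 17.2 to 19.3 CPM, and of 4 tested Pf4 and Ppbp were called higher (1.47 and 1.40). The sinusoidal endothelial markers summed to 212 to 306 CPM against 154 to 169 CPM, and the stellate cell markers to 6.77 to 8.46 CPM against 2.44 to 5.61 CPM, with 1 of 2 tested called higher and Lrat at 0 counts in every library. The plasmacytoid dendritic cell markers summed to 139 to 173 against 106 to 160 CPM, with Cox6a2 called lower (-1.52). The neutrophil markers overlapped and summed to 549 to 3851 against 1367 to 3312 CPM. The part of all these lists in the levels of the 6 genes was not tested.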
